A study of Mus musculus with 9 samples.

Results

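The interferon response and class I antigen presentation were followed here through 43 mouse genes chosen by name: 11 of class I presentation, 17 interferon-induced genes, 7 interferon receptor chains and Janus kinases, and 8 transcription factors. Every probe set whose platform symbol was one of these names was taken, which gave 80 probe sets for 41 of the 43 genes, out of 45101 probe sets and 18193 genes with a value. For H2-T23 and Isg15 the probe sets found were annotated to several genes, so neither has a value here. The samples were 9 Affymetrix arrays of passage 3 neurospheres, floating cell clusters grown from C57BL/6J embryos at embryonic day 12.5, with 3 arrays in each of 3 groups. All cultures received 20 ng/ml bFGF (a fibroblast growth factor), 20 ng/ml EGF (epidermal growth factor) and heparin, with N2 and B27 supplements. The rNCSC group came from dorsal root ganglia (DRG) and the SCSC group from spinal cord, both in this medium alone. The BMP NCSC group came from DRG in the same medium plus BMP4 (a bone morphogenetic protein) at 10 ng/ml. No virus, interferon or other immune stimulus is named for any group. Whether replicate arrays derive from different embryos or cultures is not stated in the labels, so every p-value reflects array-to-array spread alone, which may be technical.

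Interferons are secreted proteins that bind receptor pairs (Ifnar1 with Ifnar2 for type I, Ifngr1 with Ifngr2 for type II), whose Janus kinases phosphorylate STAT proteins. For type I interferon, Stat2 and Irf9 then act at the interferon-stimulated response element (ISRE) of target genes, many of which restrict viruses. Class I molecules show peptides, cut by the proteasome and carried into the endoplasmic reticulum by Tap1 and Tap2, to cytotoxic T cells. They consist of a heavy chain such as H2-K1 or H2-D1 with B2m, and neural cells are known for low levels of them.

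Values are log2 signals made by the authors with GCRMA, which compresses the readings of unexpressed transcripts, so the size of a difference is uncertain where a mean lies under 4. Where a gene had several probe sets, the one with the highest average signal was used. Genes that reached 5 on at least 3 arrays, 10319 in all, were tested with limma, and "called" means an adjusted p below 0.05 with a log2 difference of at least 1. Array medians lay between 3.99 and 4.03, and arrays of a group correlated at 0.968 or more over the genes tested. For interferon-induced genes, however, BMP NCSC array 3 stood apart from the other arrays of its group. It lay at least 1 above the mean of arrays 1 and 2 for 7 of the 16 such members with a value (43.8%), against 1.61% of all genes. Array 3 was highest of its group for 68.8% of these members in rNCSC and 56.2% in SCSC, beside 41.1% and 43.5% of all genes, so the other arrays numbered 3 lay to the same side. In rNCSC 18.8% of the members were at least 1 above the mean of arrays 1 and 2 (2.1% of all genes), and in SCSC 0%. In rNCSC, array 1 was far below its group for Ifitm3 and array 3 far above it for Ifitm2. Results that rest on these arrays are given with and without them.

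Of the 41 members with a value, 22 were tested, 14 stayed under 5 on every array and 8 stayed under 4. BMP NCSC stood higher than rNCSC for 14 of the 22 tested members and lower for 1, beside 22.6% of all genes tested called higher and 21.3% called lower. Against SCSC the count was likewise 14 higher and 1 lower, beside 22.9% and 24% of all genes. Ifitm1, Ifi35 and Irf9 passed the filter only through BMP NCSC, which fixes their direction. Ifit2, the lower call, passed only through the groups without BMP4, so these counts are a description. Over all 41 members the median difference was 0.99 against rNCSC and 0.79 against SCSC, with medians of -0.04 and -0.03 over all genes with a value. All 3 BMP NCSC arrays lay above the other 6 for 24 of the 41 members and below them for 4, beside 25.2% and 28.2% of all genes. Both comparisons use the same BMP NCSC arrays and are not independent of each other. In bulk samples such as these, a larger share of cells that express a gene and more RNA per cell cannot be told apart.

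Class I presentation genes were split. B2m, H2-D1 and Tapbp were called higher in BMP NCSC against both other groups, no tested class I member was called lower, and the immunoproteasome subunits Psmb8 and Psmb9 stayed near the lower end of the scale everywhere. B2m, the light chain of every class I molecule, read 11.51, 10.88 and 11.25 on the rNCSC arrays, 11.05, 10.96 and 11.04 on SCSC, and 12.45, 12.24 and 12.51 on BMP NCSC. It was thus abundant in all 3 groups, and the BMP NCSC arrays lay above all others. The difference was 1.19 against rNCSC (SE 0.16, limma adjusted p = 0.000125) and 1.38 against SCSC (SE 0.16, adjusted p = 4.46e-05). Its second probe set gave 1.23 and 1.32, both called.

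Tapbp, or tapasin, bridges empty class I molecules to the peptide transporter, and it had the largest difference among the class I members. It read 6.75, 6.54 and 6.84 in rNCSC, 6.11, 6.60 and 6.40 in SCSC, and 10.16, 10.18 and 10.29 in BMP NCSC. The BMP NCSC arrays lay above the other 6, and the BMP NCSC mean of 10.21 ± 0.07 (SD, n = 3) was 3.50 above rNCSC (SE 0.14, limma adjusted p = 6.67e-08) and 3.84 above SCSC (adjusted p = 3.59e-08), or 11.3-fold and 14.3-fold. A second probe set was low, with means of 3.18, 3.21 and 4.08 in rNCSC, SCSC and BMP NCSC, and with the mean of both the Tapbp differences were 2.20 and 2.35, 4.59-fold and 5.11-fold and still called. The genes on either side of Tapbp in the chromosome 17 gene order, Zbtb22 and Rgl2, differed by 0.35 and -0.22 from rNCSC and were not called.

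H2-D1, a classical heavy chain, read 6.42, 6.57 and 6.75 in rNCSC, 6.93, 7.14 and 7.00 in SCSC, and 7.84, 8.04 and 8.35 in BMP NCSC. The 3 groups formed 3 steps without overlap. BMP NCSC was 1.49 above rNCSC (SE 0.15, limma adjusted p = 1.93e-05) and 1.05 above SCSC (adjusted p = 0.00017), and the latter was 0.91 and no longer called without BMP NCSC array 3. H2-K1, the other classical heavy chain with a value, read 6.55, 6.84 and 6.33 in rNCSC, 6.86, 7.48 and 7.11 in SCSC, and 7.12, 6.83 and 7.23 in BMP NCSC. Its BMP NCSC arrays overlapped both other groups, while every rNCSC array lay below every SCSC array. The BMP NCSC differences of 0.48 from rNCSC and -0.09 from SCSC were not called. Of the 13 probe sets for these heavy chains 11 are of a type (_x_at) that can match related transcripts, and they disagreed. A second H2-K1 probe set was called higher than rNCSC at 1.06, and another differed by 0.31, not called. A second H2-D1 probe set differed by 1.07 from rNCSC, called, and by 0.72 from SCSC, not called. All H2-D1 calls came from _x_at probe sets. Its other probe sets were too low to test, and those not of this type showed no rise. Their means were 3.79 and 2.67 in rNCSC, 4.02 and 2.61 in SCSC, and 3.78 and 2.70 in BMP NCSC. An untested _x_at probe set rose from 3.51 in rNCSC to 5.27 in BMP NCSC. The rest had no group mean above 3.68.

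The peptide transporter was low throughout. Tap1 read 3.69, 3.76 and 3.51 in rNCSC, 3.57, 3.69 and 3.63 in SCSC, and 4.94, 5.07 and 5.05 in BMP NCSC. Tap2, its partner, had group means of 3.78 ± 0.06, 3.86 ± 0.18 and 4.78 ± 0.11 (SD, n = 3). For both genes every BMP NCSC array lay above the other 6, but neither reached 5 on 3 arrays, so they were not tested. With no filter, Tap1 would be called higher than rNCSC at 1.37 (limma adjusted p = 1.63e-06). Only the Tap1 probe set used showed this rise. The others had means of 3.20, 2.18 and 2.57 in rNCSC and 3.05, 2.29 and 2.70 in BMP NCSC. Psmb8, Psmb9 and Nlrc5, the last a transactivator of class I genes, had no group mean above 3.43. Psmb10, the immunoproteasome subunit that was clearly detected, went the other way, at 7.53, 7.64 and 7.82 in rNCSC, 7.66, 7.84 and 7.63 in SCSC, and 6.56, 7.14 and 6.85 in BMP NCSC. Its BMP NCSC arrays lay below the other 6. The differences of -0.81 from rNCSC (adjusted p = 0.00118) and -0.86 from SCSC (adjusted p = 0.000787) were under the size limit. Without BMP NCSC array 2 the latter was -1.003 and called.

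**Figure D1:**
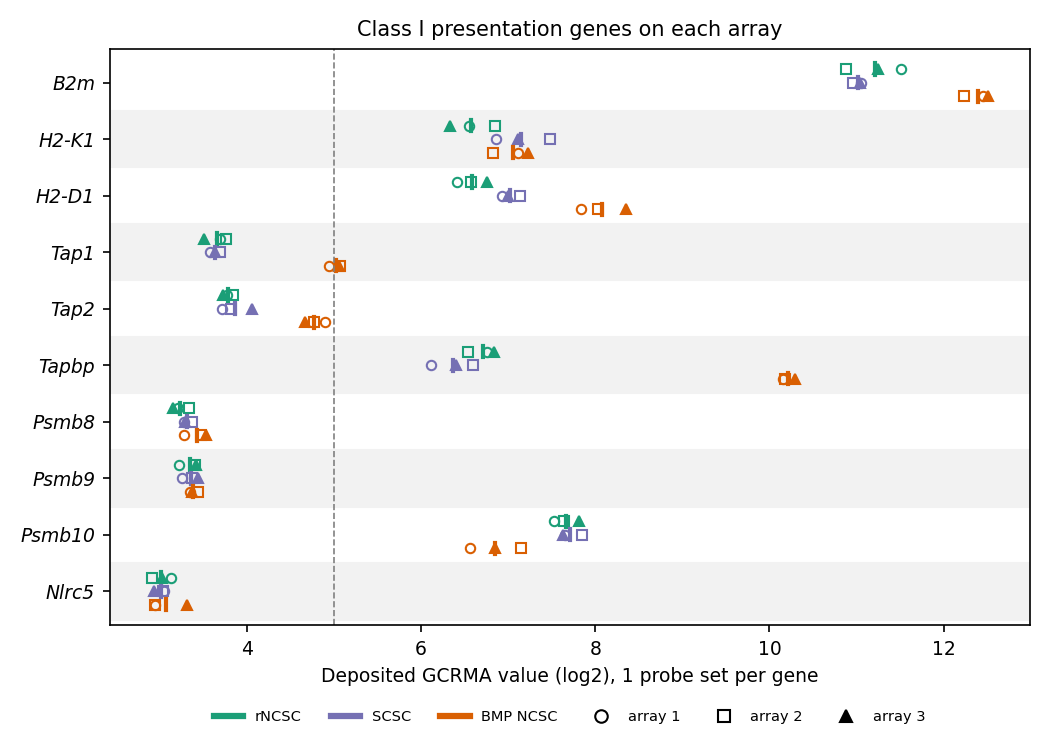
Deposited log2 value of the 10 class I presentation genes with a value, 1 probe set per gene, on each of the 9 arrays (marker shape gives the array, colour the group, short bars the group means). The dashed line at 5 is the level that 3 arrays had to reach for a test. B2m, H2-D1 and Tapbp lie to the right in BMP NCSC, Psmb10 to the left, and Psmb8, Psmb9 and Nlrc5 stay near 3.

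To show what the class I genes called in both comparisons carry upstream, the 250 bases before their RefSeq start sites are given (GRCm38.p6, reading 5′ to 3′ on the gene's strand). They are B2m (chr2:122147437-122147686, + strand), H2-D1 (chr17:35262844-35263093, + strand) and Tapbp (chr17:33919228-33919477, + strand). Capitals mark matches, on either strand, to an ISRE core (GAAA and GAAA with NN between them), a STAT site (TTCNNNGAA) or an NF-kB core (GGG and TTTCC with NN between them).
B2m: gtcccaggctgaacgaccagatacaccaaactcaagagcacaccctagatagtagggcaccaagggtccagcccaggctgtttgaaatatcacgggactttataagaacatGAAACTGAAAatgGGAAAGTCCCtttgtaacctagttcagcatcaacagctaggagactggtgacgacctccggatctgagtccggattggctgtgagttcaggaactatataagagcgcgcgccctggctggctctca
H2-D1: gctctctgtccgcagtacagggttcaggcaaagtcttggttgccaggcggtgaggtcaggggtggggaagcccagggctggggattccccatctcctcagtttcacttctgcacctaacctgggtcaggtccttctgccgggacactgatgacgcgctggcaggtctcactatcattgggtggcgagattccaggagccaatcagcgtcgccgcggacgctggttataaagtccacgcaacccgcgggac
Tapbp: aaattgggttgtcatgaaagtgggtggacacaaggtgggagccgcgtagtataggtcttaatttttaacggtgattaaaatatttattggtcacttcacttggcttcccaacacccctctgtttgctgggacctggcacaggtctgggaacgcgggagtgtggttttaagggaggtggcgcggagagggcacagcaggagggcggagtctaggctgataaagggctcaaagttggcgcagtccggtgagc
B2m holds an ISRE core starting 139 bases before the start and an NF-kB core at 126 bases before it. The windows of H2-D1 and Tapbp hold no exact match to these strings. Looser forms of the sites were not searched, so their absence is not shown. Among the 39 members with a promoter in the table, 13 had an ISRE core, 7 a STAT site and 3 an NF-kB core, while 3.46%, 8.13% and 1.65% of all 27025 genes with a promoter there did (2.98%, 7.02% and 1.41% of all 32851 promoters). The 13 were B2m, H2-T23, Ifitm2, Ifit1, Ifit3, Isg15, Bst2, Gbp2, Gbp3, Rsad2, Socs1, Irf2 and Stat2. Because the members were chosen by name for the interferon response, a larger share among them follows from that choice and is a description. Of all tested genes with an ISRE core, 27.3% of 238 were called higher in BMP NCSC than in rNCSC, beside the 22.6% of all genes tested. A match is a description of the letters and does not show that a factor binds there.

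Further genes of class I presentation were called in both directions. Of 28 further class I genes and loading factors listed, 19 had a value and 13 were tested. Of those tested, 3 were called higher than rNCSC and 2 lower, beside 22.6% and 21.3% of all genes. Against SCSC the counts were 2 and 2, beside 22.9% and 24%. Psme1, an activator subunit of the proteasome, had a mean of 9.19 in rNCSC and 10.26 in BMP NCSC. Psme3, the activator of nuclear proteasomes, went from 8.21 to 5.84, and Cd1d1, which presents lipids, from 10.78 to 6.37. Erap1, which trims peptides, and Tapbpl, a relative of tapasin, made up the rest of the higher calls at 1.42 and 1.19, but both passed the filter only through BMP NCSC, which fixes their direction. They were named after their values were seen, to complete the count. The 15 genes of the standard proteasome core were all tested, and 0 were called higher and 1 lower than rNCSC, namely Psmb7 at 11.08 and 10.07, with 3 lower than SCSC. Their median difference from rNCSC was -0.46. Class II genes, which present to helper T cells and mark professional presenting cells, had 10 with a value, none of which exceeded 4.02 on any array.

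The interferon-induced members gave 5 of the 14 higher calls and the single lower call, and 10 of their 16 were too low to test. Ifitm1, Ifitm2 and Ifitm3 encode small membrane proteins that block virus entry at the cell surface and in endosomes, and all 3 were called higher in BMP NCSC against both groups. Ifitm2 read 6.05, 5.12 and 9.05 in rNCSC, 6.35, 6.98 and 6.90 in SCSC, and 12.22, 12.28 and 12.43 in BMP NCSC. Its BMP NCSC arrays lay close together, above all others, while rNCSC spread widely because array 3 was high. The difference was 5.57 from each group (SE 0.83, limma adjusted p = 0.000277 from rNCSC and 0.000262 from SCSC). Without rNCSC array 3 the difference from rNCSC was 6.73, and without rNCSC array 2 it was 4.76, both called.

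Ifitm3 read 2.44, 7.57 and 7.10 in rNCSC, 7.37, 7.64 and 7.89 in SCSC, and 11.91, 11.98 and 12.46 in BMP NCSC. The BMP NCSC arrays again lay above all others, and the low rNCSC mean rested on array 1. BMP NCSC was 6.41 above rNCSC (SE 1.15, limma adjusted p = 0.000829) and 4.48 above SCSC (SE 1.15, adjusted p = 0.00605). Without rNCSC array 1 the former was 4.78 (adjusted p = 1.48e-06), without array 2 it was 7.35 and without array 3 it was 7.11. Ifitm1 read 3.55, 3.61 and 3.59 in rNCSC, 3.60, 3.26 and 3.64 in SCSC, and 6.42, 7.25 and 10.19 in BMP NCSC. It was near the lower end of the scale on the other 6 arrays and spread widely within BMP NCSC, with array 3 on top. Its difference from rNCSC was 4.37 (SE 0.80, limma adjusted p = 0.000947), and it was 3.25 without BMP NCSC array 3 and 5.14 without array 1, with the tested genes kept. In the gene order of chromosome 7 the family runs Ifitm5, Ifitm2, Ifitm1, Ifitm3, Ifitm6. The outer genes stayed low, Ifitm5 with a mean of 3.33 and Ifitm6 of 3.68 in BMP NCSC, against 3.17 and 2.91 in rNCSC.

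The upstream windows of Ifitm2 (chr7:140955962-140956211, - strand) and Ifitm3 (chr7:141010745-141010994, - strand), which lie on either side of Ifitm1, are shown in the same way, chosen after the values were seen.
Ifitm2: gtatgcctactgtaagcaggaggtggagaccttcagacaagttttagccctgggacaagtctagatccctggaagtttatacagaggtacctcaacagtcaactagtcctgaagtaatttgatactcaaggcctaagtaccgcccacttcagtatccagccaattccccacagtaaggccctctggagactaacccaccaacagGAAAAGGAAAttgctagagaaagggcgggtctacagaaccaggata
Ifitm3: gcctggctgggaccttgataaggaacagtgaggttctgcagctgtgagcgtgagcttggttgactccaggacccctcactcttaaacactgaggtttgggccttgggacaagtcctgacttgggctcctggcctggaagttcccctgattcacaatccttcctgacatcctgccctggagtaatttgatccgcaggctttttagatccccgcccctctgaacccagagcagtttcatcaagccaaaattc
Ifitm2 holds an ISRE core 46 bases before its start, and Ifitm3 holds none of the searched motifs in this window.

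Ifi35 and Ifi27 were also called higher against both groups. Ifi35, an interferon-induced leucine zipper protein, read 2.66, 3.32 and 3.51 in rNCSC, 3.35, 3.81 and 3.63 in SCSC, and 10.26, 10.23 and 10.48 in BMP NCSC. BMP NCSC lay far above both other groups, and its arrays were close together. The difference from rNCSC was 7.16 (SE 0.22, limma adjusted p = 1.52e-08), the largest of any member, and 6.72 from SCSC (adjusted p = 2.12e-08). Its other probe sets gave 4.34 and 2.87 from rNCSC, so its size depends on the probe set, but all 3 were called higher. In the gene order of chromosome 11 Ifi35 lies between Rpl27, at -0.30 and not called, and Vat1, which was called higher at 1.90.

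Ifi27, a small hydrophobic interferon-induced protein, read 5.88, 5.88 and 6.27 in rNCSC, 4.67, 4.61 and 4.56 in SCSC, and 8.53, 8.44 and 9.63 in BMP NCSC. The 3 groups formed steps without overlap. BMP NCSC was 2.86 above rNCSC (SE 0.29, limma adjusted p = 2.25e-05) and 4.25 above SCSC (adjusted p = 1.71e-06), and without array 3 of BMP NCSC the former was 2.48 (adjusted p = 2.92e-06). Ifit2, whose protein binds viral RNA and slows translation, was the member called lower. It reached 5 on 2 BMP NCSC arrays, so it passed the filter only through the groups without BMP4, which favours that direction. It read 5.80, 6.71 and 7.09 in rNCSC, 6.29, 6.29 and 6.61 in SCSC, and 4.81, 5.24 and 5.40 in BMP NCSC. All BMP NCSC arrays lay below the other 6, with differences of -1.38 from rNCSC (SE 0.31, limma adjusted p = 0.00305) and -1.24 from SCSC (adjusted p = 0.00517). Its relatives Ifit1 and Ifit3 were untested and had BMP NCSC means above the other groups.

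The 10 interferon-induced members that were not tested did not exceed 5.51 on any array, except Ifit3 on BMP NCSC array 3. Bst2, or tetherin, which holds budding viruses at the cell surface, had means of 3.67 ± 0.24 in rNCSC, 3.85 ± 0.07 in SCSC and 4.89 ± 0.58 in BMP NCSC (SD, n = 3). Trim25, a ubiquitin ligase of RNA sensing, had 3.50 ± 0.90, 4.34 ± 0.04 and 5.13 ± 0.31 in the same order. Ifih1, the RNA sensor MDA5, had 3.63 ± 0.05, 3.45 ± 0.07 and 3.30 ± 0.27. Rsad2, or viperin, stood lower on every BMP NCSC array, at 4.07 ± 0.0145, 3.98 ± 0.11 and 3.67 ± 0.11, and Socs1, which inhibits Janus kinases, did not exceed 3.22 on any array. With no filter, Ifit3, Bst2, Gbp2 and Trim25 would also be called higher than rNCSC. That fit included BMP NCSC array 3 and was not repeated without it. Array 3 lay above the mean of arrays 1 and 2 by 2.66 for Ifit3, 0.93 for Bst2 and 1.31 for Gbp2, but not for Trim25. Of the other Trim25 probe sets, 1 rose from a mean of 3.30 in rNCSC to 4.93 in BMP NCSC. The other did not, at 3.32 and 3.20.

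**Figure D2:**
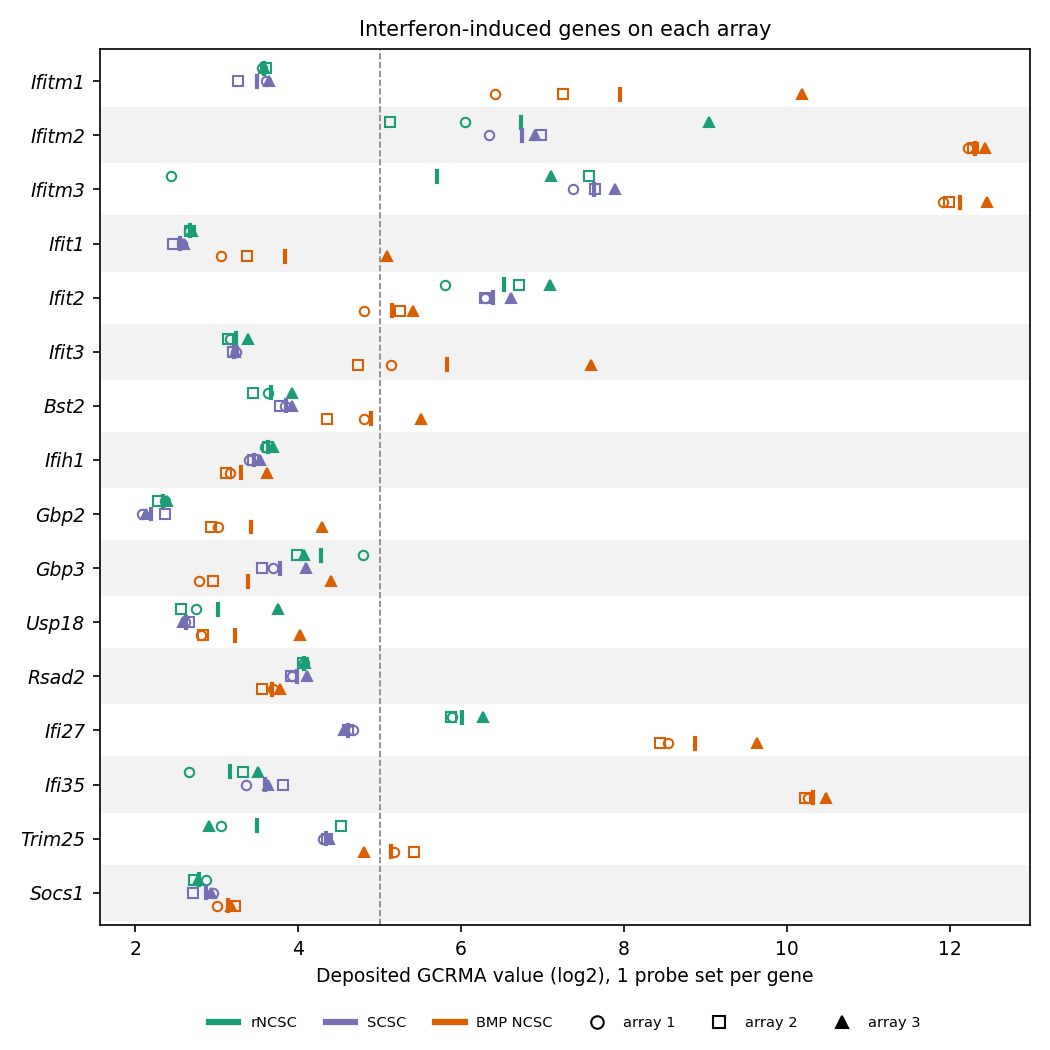
Deposited log2 value of the 16 interferon-induced genes with a value, 1 probe set per gene, on each of the 9 arrays (marker shape gives the array, colour the group, short bars the group means; dashed line at 5, the level of the filter). Ifitm2, Ifitm3, Ifi27 and Ifi35 lie to the right on every BMP NCSC array, whereas Ifitm1, Ifit1 and Ifit3 are highest on BMP NCSC array 3.

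BMP NCSC array 3 gave higher values than the mean of the other BMP NCSC arrays for many interferon-induced members. The distance was 3.36 for Ifitm1, 2.66 for Ifit3, 1.88 for Ifit1, 1.53 for Gbp3, 1.31 for Gbp2, 1.20 for Usp18 and 1.15 for Ifi27. Ifit3 read 5.13, 4.74 and 7.59 on the BMP NCSC arrays and Ifit1 3.05, 3.37 and 5.09, while no array of the other groups exceeded 3.39 for Ifit3 or 2.69 for Ifit1. Gbp2 and Gbp3, guanylate-binding proteins of the gamma interferon response, read 4.29 and 4.40 on array 3. Gbp3 was below the other groups on arrays 1 and 2, at 2.79 and 2.96, and within the range of rNCSC on array 3. Array 3 was the highest of the 3 BMP NCSC arrays for 14 of the 16 induced members (87.5%), beside 35.9% of all genes. No class I member (0 of 10), receptor or kinase (0 of 7) or factor (0 of 8) reached a distance of 1. Of all genes 1.61% did, so counts of 0 in lists this short say little. Array 3 was the highest of its group for 60% of class I members, 28.6% of receptors and kinases and 62.5% of factors, beside the same 35.9%. Among 45 other interferon-stimulated genes 9 reached it (20%), and in the NF-kB list 3 of 15, among them the chemokine Cxcl1 at 7.89, 7.68 and 11.20. Lists of other kinds had such genes too, with 1 of 5 dividing cell markers and 2 of 13 mesenchyme and matrix markers. Array 3 was highest for 80% of the dividing cell markers, and 2 mesenchyme and matrix markers lay at least 1 below. Crest, CNS progenitor and endothelial markers had 0 at that distance above. Of 16 microglia and macrophage markers, 15 did not exceed 4.16 on this or any other array. What set this array apart was not tested.

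Ifit1 (chr19:34640639-34640888, + strand) and Ifit3 (chr19:34583279-34583528, + strand) are shown as the members with the widest distance on array 3 after Ifitm1, chosen after the values were seen.
Ifit1: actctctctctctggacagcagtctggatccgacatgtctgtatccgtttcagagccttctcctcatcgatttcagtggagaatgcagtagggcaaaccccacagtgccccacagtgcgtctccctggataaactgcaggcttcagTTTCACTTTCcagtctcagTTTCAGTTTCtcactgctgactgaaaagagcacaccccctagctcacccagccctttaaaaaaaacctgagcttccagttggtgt
Ifit3: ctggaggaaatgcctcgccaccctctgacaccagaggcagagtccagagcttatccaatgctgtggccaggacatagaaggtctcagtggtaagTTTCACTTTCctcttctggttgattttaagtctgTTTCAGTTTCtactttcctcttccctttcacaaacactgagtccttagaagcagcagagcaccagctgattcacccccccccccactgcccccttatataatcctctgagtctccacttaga
Each holds a pair of ISRE cores, starting 104 and 85 bases before the start in Ifit1 and 156 and 122 bases before it in Ifit3. Of the 5 members at least 1 higher on array 3 that had a promoter in the table, 4 had an ISRE core, beside 13 of all 39 members with a promoter. Over all genes with a value and an ISRE core the share at least 1 higher on array 3 was 4.42%, beside 1.48% of all genes with a promoter.

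**Figure D3:**
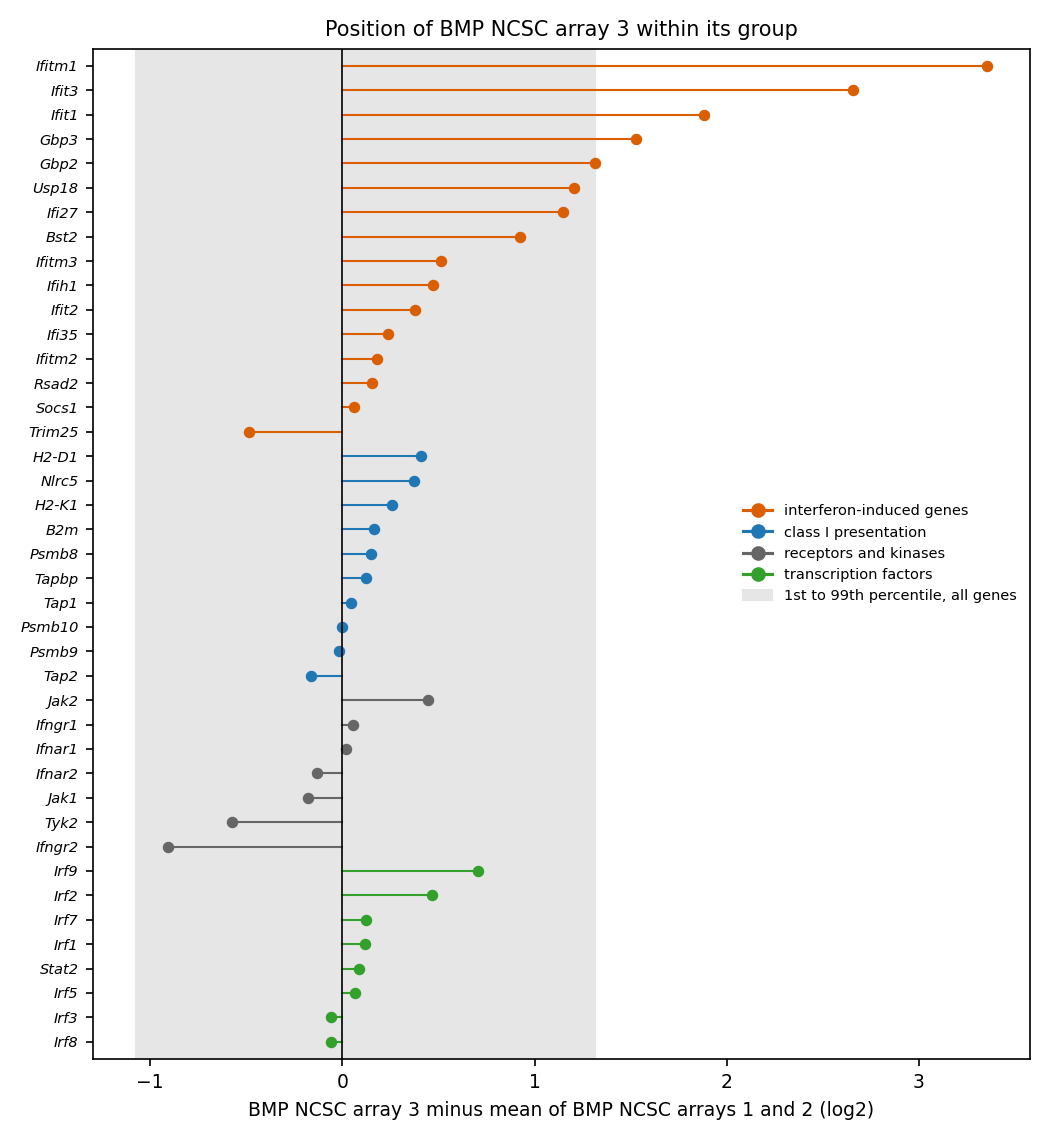
Value on BMP NCSC array 3 minus the mean of BMP NCSC arrays 1 and 2 (log2) for the 41 members with a value, ordered within their role. The grey band spans the 1st to 99th percentile of all genes, -1.07 to 1.31; Ifitm1, Ifit3, Ifit1 and Gbp3 lie beyond it.

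The receptors and their kinases were expressed in all 3 groups, and 5 of 7 were called higher in BMP NCSC against both other groups, none lower. Of all genes tested, 22.6% were called higher and 21.3% lower than rNCSC, and 22.9% and 24% against SCSC. Ifnar2, the type I receptor chain with the long signalling tail, read 8.08, 7.61 and 7.57 in rNCSC, 7.89, 8.07 and 7.63 in SCSC, and 10.23, 10.34 and 10.15 in BMP NCSC. The BMP NCSC arrays lay above all others, with a difference of 2.49 from rNCSC (SE 0.16, limma adjusted p = 1.49e-06) and 2.38 from SCSC (adjusted p = 1.83e-06). Its other probe sets gave 0.84 and 0.98 from rNCSC, neither called, and 0.68 and 1.05 from SCSC, the latter called. Ifnar1, its partner, had means of 7.83 ± 0.17 in rNCSC, 7.80 ± 0.04 in SCSC and 8.14 ± 0.14 in BMP NCSC (SD, n = 3), differences of 0.31 and 0.35 that were under the size limit (limma adjusted p = 0.0331 and 0.0198). A second Ifnar1 probe set gave -0.47 from rNCSC and -0.25 from SCSC, neither called. The chains of the type I receptor thus had unlike differences. Whether they differ from each other was not tested.

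Ifngr1, the ligand-binding chain of the type II receptor, read 7.91, 7.70 and 7.82 in rNCSC, 7.54, 7.86 and 7.79 in SCSC, and 9.18, 9.11 and 9.20 in BMP NCSC. The BMP NCSC arrays lay above the other 6, and the differences were 1.35 (SE 0.11, limma adjusted p = 4.89e-06) and 1.44 (adjusted p = 3.12e-06). Ifngr2, the second chain, had means of 5.61 ± 0.29, 5.86 ± 0.52 and 6.19 ± 0.56 (SD, n = 3), and its arrays overlapped, with no call. On a second Ifngr2 probe set all BMP NCSC arrays lay above the other 6. With every probe set tested it gave 0.46 from rNCSC and 0.44 from SCSC (limma adjusted p = 0.00503 and 0.00639), under the size limit. Jak1, which serves both receptors, had means of 8.22 ± 0.18 in rNCSC, 8.21 ± 0.24 in SCSC and 9.74 ± 0.14 in BMP NCSC, differences of 1.52 and 1.53 (adjusted p = 1.81e-05 and 1.6e-05). Its 3 probe sets were all called higher. Jak2, the kinase of Ifngr2, read 8.99, 8.93 and 8.77 in rNCSC, 9.11, 9.03 and 8.98 in SCSC, and 10.15, 10.28 and 10.66 in BMP NCSC. Its differences were 1.46 and 1.32 (adjusted p = 1.38e-05 and 2.4e-05), and its second probe set was called too. Tyk2, the kinase of Ifnar1, read 5.12, 4.93 and 5.28 in rNCSC, 5.21, 5.20 and 5.21 in SCSC, and 6.51, 6.63 and 5.99 in BMP NCSC. Its differences were 1.27 and 1.17 (adjusted p = 0.000121 and 0.000188). With the mean of its probe sets the differences were 0.55 and 0.49, and the calls were lost.

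**Figure D4:**
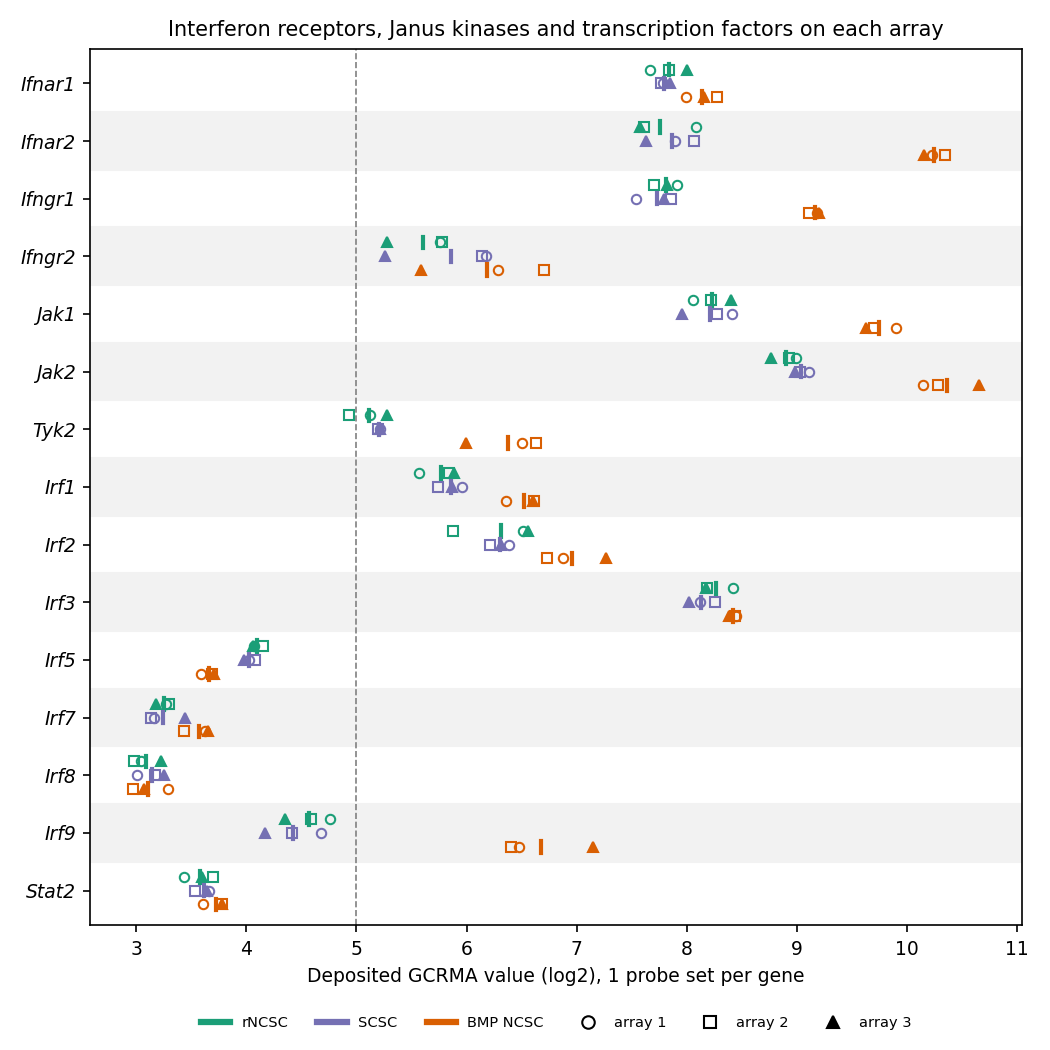
Deposited log2 value of the 7 receptor and kinase genes and 8 transcription factor genes, 1 probe set per gene, on each of the 9 arrays (marker shape gives the array, colour the group, short bars the group means; dashed line at 5, the level of the filter). Ifnar2, Ifngr1, Jak1, Jak2, Tyk2 and Irf9 lie to the right in BMP NCSC, while Irf5, Irf7, Irf8 and Stat2 stay under 5.

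On chromosome 16 the receptor genes follow the Olig genes, in the order Olig2, Olig1, Ifnar2, Il10rb, Ifnar1, Ifngr2. Olig2 and Olig1, transcription factors of the oligodendrocyte lineage, had means of 12.10 and 13.57 in rNCSC and of 1.47 and 2.49 in BMP NCSC. Next to them Ifnar2 stood 2.49 higher and Il10rb, a chain of the interleukin-10 and type III interferon receptors, 2.83 higher in BMP NCSC (5.31 ± 0.09 and 8.14 ± 0.27, SD, n = 3). Ifnar1 and Ifngr2, further along, were not called. Neighbouring genes in this stretch therefore lay on opposite sides.

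**Figure D5:**
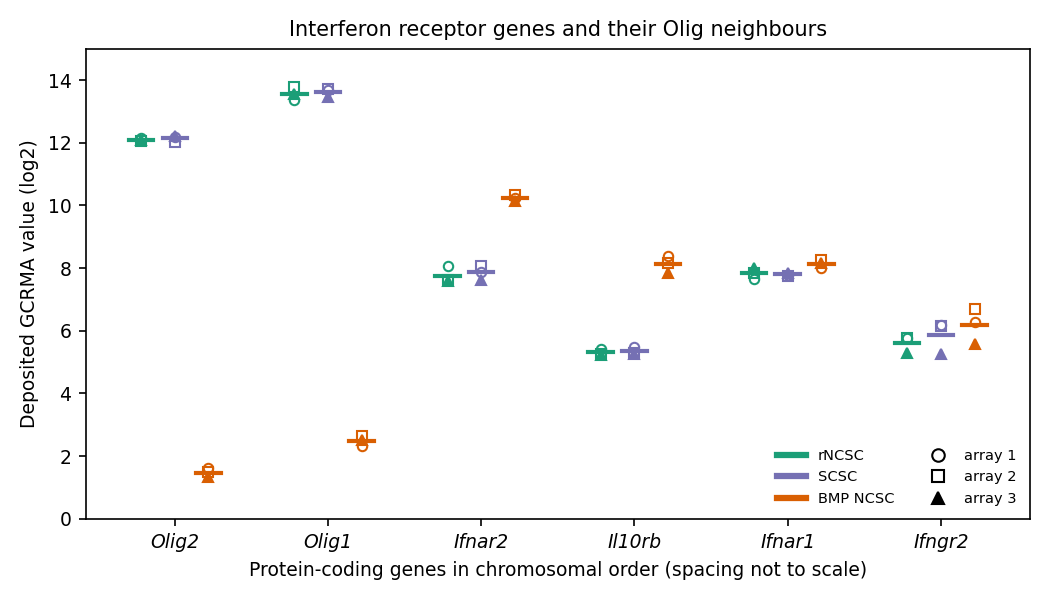
Deposited log2 value of 6 neighbouring genes of chromosome 16 in their order along it (spacing not to scale), for each array (marker shape) and group (colour), with group means as bars. Olig2 and Olig1 drop to 1.47 and 2.49 in BMP NCSC while Ifnar2 and Il10rb stand higher, at 10.24 and 8.14.

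Among the transcription factors, Irf9 was called and the rest were not. Irf9, the DNA-binding part of the type I complex, read 4.76, 4.59 and 4.35 in rNCSC, 4.68, 4.42 and 4.17 in SCSC, and 6.47, 6.41 and 7.15 in BMP NCSC. The BMP NCSC arrays lay above the other 6, and the differences were 2.11 from rNCSC (SE 0.22, limma adjusted p = 2.77e-05) and 2.25 from SCSC (adjusted p = 1.69e-05). Its partner Stat2 was at 3.58 ± 0.13, 3.61 ± 0.07 and 3.72 ± 0.10 (SD, n = 3), too low to test. Irf1, an activator of class I genes, had means of 5.76, 5.86 and 6.52. Irf2, its antagonist at many sites, had 6.31, 6.30 and 6.96. For both, all BMP NCSC arrays lay above the other 6, with differences of 0.76 and 0.64 from rNCSC that were under the size limit (limma adjusted p = 0.000399 and 0.0171). Irf3, which acts downstream of viral RNA sensing, read 8.42, 8.19 and 8.18 in rNCSC, 8.12, 8.26 and 8.02 in SCSC, and 8.44, 8.44 and 8.38 in BMP NCSC, and was not called. Irf7 and Irf8 did not exceed 3.65 on any array. Irf5 stood lower on every BMP NCSC array, at 3.66 ± 0.06 beside 4.09 ± 0.05 and 4.03 ± 0.05. A second Irf5 probe set was not lower, at 3.47 beside 3.39 and 3.30.

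Of 20 further JAK, STAT and SOCS genes tested, 8 were called higher and 0 lower than rNCSC, beside 22.6% and 21.3% of all genes, with the same counts against SCSC. Of the 8, 3 passed the filter only through BMP NCSC, Socs2 and Stat6 among them. Socs2 and Socs3, feedback inhibitors of cytokine receptors, had means of 3.43 and 5.05 in rNCSC and 9.99 and 10.15 in BMP NCSC. Stat6, the factor of interleukin-4 signalling, had 2.51 and 8.31. In the NF-kB and TNF list 7 of 9 tested genes were called higher and 0 lower, of which 2, Relb and Cxcl1, passed only through BMP NCSC. They included the factors Cebpb (6.04 and 11.04) and Cebpd (5.57 and 11.80), Cxcl1 (2.88 and 8.92) and the TNF receptor Tnfrsf1a (7.71 and 10.02).

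The comparison of DRG with spinal cord spheres, both without BMP4, gave no called member. In rNCSC against SCSC 0 of the 22 tested members were called with limma, beside 0% of all genes called higher and 0.00969% called lower. At an unadjusted p below 0.05 there were 4 members and 1413 of all genes. The median difference over the 41 members was 0.01. Ifi27 was 1.40 higher in rNCSC on every array (limma adjusted p = 0.164), and without BMP NCSC array 3 in the model it was called (adjusted p = 0.0258, and 0.0279 with the tested genes kept). The heavy chains H2-D1 and H2-K1 were lower on every rNCSC array than on every SCSC array, by differences of -0.44 and -0.57 that did not pass (adjusted p = 0.256 and 0.264). Ifitm3 differed by -1.93 (SE 1.15, adjusted p = 0.492), with rNCSC array 1 far below the rest.

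A further list of 50 interferon-stimulated genes had 45 with a value and 18 tested, of which 10 were called higher and 1 lower than rNCSC (11 and 1 against SCSC), beside 22.6% and 21.3% of all genes. Of the 10, 8 passed the filter only through BMP NCSC, which fixes their direction, so the count is a description. Ifi30, a thiol reductase of endosomes, had means of 6.17 in rNCSC, 6.20 in SCSC and 10.67 in BMP NCSC. Uba7, which activates Isg15, had 3.75, 3.59 and 7.18. The immunity-related GTPases Iigp1 and Irgm2 were higher on every BMP NCSC array and highest on array 3, at 6.53, 7.16 and 9.42 and at 6.23, 6.84 and 8.69. The single lower call was Herc6, an Isg15 ligase, named here to complete the count, at a difference of -2.59. Herc6 passed the filter only through the groups without BMP4. Nucleic acid sensors and their adaptors were mixed, with 2 of 7 tested called higher and 2 lower in each comparison. The shares over all genes were 22.6% and 21.3% against rNCSC and 22.9% and 24% against SCSC. The adaptor Myd88, which passed only through BMP NCSC, had means of 4.01 and 7.37 in rNCSC and BMP NCSC, and Trim56 5.87 and 7.18. Tlr3, the endosomal receptor for double-stranded RNA, had 7.73 and 6.21, and Cgas, the DNA sensor, was the other lower call. Of these 2 lower calls, 1 passed only through the groups without BMP4. The 7 interferon genes with a value did not exceed 3.54 on any array of any group.

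Markers of cells that could carry class I or interferon signals were checked in the same arrays. Of 16 microglia and macrophage markers, 15 did not exceed 4.16 on any array, and Lyz2, a lysozyme, had means of 3.42, 3.37 and 6.02 in rNCSC, SCSC and BMP NCSC. The mean level of the whole list lay between 3.02 and 3.05 in rNCSC, 2.94 and 3.12 in SCSC, and 3.13 and 3.23 in BMP NCSC. The 9 lymphocyte and NK markers with a value did not exceed 3.87. Of 5 dendritic cell markers Zbtb46 reached 5, with means of 6.32, 6.28 and 7.25, and of 10 endothelial markers Egfl7 did. Mesenchyme and matrix markers were also higher in BMP NCSC, with 11 of 11 tested called higher than rNCSC, beside 22.6% of all genes. The list's mean level was 9.77 to 10.39 in BMP NCSC, 3.33 to 3.52 in rNCSC and 3.30 to 3.46 in SCSC. Of those 11, 9 passed the filter only through BMP NCSC. Crest and peripheral glia markers were called higher in 5 of 5 tested, all of which passed only through BMP NCSC. CNS progenitor markers were called lower than rNCSC in 8 of 9 and dividing cell markers in 5 of 5, beside 21.3% of all genes. Of these, 7 and 2 passed only through the groups without BMP4. Their part in the members' differences was not tested.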

How the data were processed

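The 9 arrays (3 each of rNCSC, SCSC and BMP NCSC) were grouped by title. Total RNA was isolated by TRIzol and column, then labelled as biotinylated cRNA, per the labels' protocols. Values were deposited as log2 signals, 1 per probe set, from GCRMA, which the submitters' processing notes name without a version. Since GCRMA equalises the distributions of arrays, a difference in total RNA per cell cannot appear. With 3 arrays per group, precision is limited.

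The table held 45101 probe sets. Of these, 64 were controls, 34958 carried 1 symbol in the platform annotation, 932 carried several and were not used, and 9211 had no entry and were not named. Symbols were updated with the RefSeq gene table (GRCm38.p6), the source of gene order too; promoters, also RefSeq's, were found for 39 of 43 members. Genes with over 1 probe set numbered 9010. The model was fitted with limma 3.58.1 (R 4.3.3) on all arrays at once, without a block, with 6 residual degrees of freedom and 2.38 from the prior. All p are two-sided and adjusted by Benjamini-Hochberg across 10319 genes. The steps were tested on simulated data.

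Per-array values are given for called members and for uncalled ones that reach 7 on all arrays of a group (some as mean ± SD); H2-K1 and Tap1 were added after their values were seen. From each other list, up to 4 called genes with the largest difference from rNCSC and a mean of at least 7 are named. The members and lists were chosen with earlier results of these data known. Alternatives covered the filter, probe set choice, normalization, variance model, thresholds, left-out arrays and the replicate number as a block.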

Additional observations from a re-analysis of the deposited data

How the results depend on the processing

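Under 25 alternatives, 1596 of 1614 member differences kept their direction and call, 4 lost the call, 14 gained one and 0 reversed; among uncalled differences 27 changed sign. The lost calls were Tyk2 against both groups with the mean of all probe sets (0.55 and 0.49) and H2-D1 against SCSC without BMP NCSC array 3 (0.91), with the filter applied again or the tested genes kept. Of the gained calls, 10 came with no limit on size, where 2 members were lower in each comparison with BMP NCSC. Ifitm1, Ifi35 and Irf9 could not be tested when any BMP NCSC array was left out and the filter applied again, nor H2-D1 without _x_at and _s_at probe sets or with the mean of probe sets, nor Tyk2 with the filter at 6. Keeping the tested genes and filtering on group means were alternatives chosen after seeing the data.

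Counts over all genes moved with every probe set tested (3733 higher and 3798 lower than rNCSC, 3827 and 4222 against SCSC) and with no limit on size (3793 and 4249, 3777 and 4444). Leaving out single arrays gave a low of 1554 genes higher than rNCSC and a high of 2405. The low came without BMP NCSC array 2, where the filter, applied again, left 9536 genes; with the tested genes kept, that count was 2289. Members lower than SCSC numbered 1 to 2, with Psmb10 added without BMP NCSC array 2. For rNCSC against SCSC, all genes called lower numbered 0 in the fit of only the 6 arrays, at an adjusted p below 0.01, and without SCSC array 2, SCSC array 3 or BMP NCSC array 2. A variance trend gave 1 higher and 3 lower. Leaving out rNCSC array 1 gave 2 lower, array 2 gave 18 higher and 53 lower, and array 3 gave 1 higher and 3 lower. Without BMP NCSC array 3, 1 gene was higher, the member Ifi27.

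The replicate numbers were not treated as pairs, since the labels do not say that a number marks a shared culture or day. Deviations of same-numbered arrays correlated at 0.042 to 0.298, all positive. Those of differently numbered arrays correlated at -0.245 to 0.118, most of them negative. Whether arrays of the same number share a batch was not tested. With the replicate number as a block, members numbered 14 higher and 1 lower against each group, and all genes lower in rNCSC than SCSC numbered 0. Signal near the lower end of the scale limits what can be said of the 19 untested members.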
